A study of Saccharomyces cerevisiae with 6 samples.

Results

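The gpa2 deletion of budding yeast was compared with its wild type on oligonucleotide arrays, and the comparison is described across all genes measured. It rests on 4 of the 6 arrays of the study, chosen by their titles: 2 arrays of total RNA from a GPA2 deletion mutant and 2 of the wild-type strain. The other 2 arrays hold a GPR1 deletion, which enters the shared estimate of spread and 1 comparison near the end. They also enter the normalisation, the floor, the filter on dim probe sets and the choice of each gene's brightest probe set. All strains are of the W303-1a background, a common laboratory strain that carries several nutritional marker mutations. The labels give no medium, growth phase, replacement marker or number of clones, so the gpa2 deletion may stand for 1 clone. The source label of gpa2 deletion array 2 adds that it was a second experiment. Whether both arrays of a strain came from separate cultures is not stated, so the p-values rest on a spread that may be technical. The study's title concerns the control of cell size by glucose through the receptor and its G protein.

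GPA2 encodes the alpha subunit of a G protein that acts with the receptor Gpr1 at the plasma membrane. When glucose or sucrose is added, active Gpa2 stimulates adenylate cyclase, cAMP rises, and cAMP releases the catalytic subunits of protein kinase A from their inhibitor Bcy1. Protein kinase A keeps the stress transcription factors Msn2 and Msn4 out of the nucleus, restrains storage of glycogen and trehalose, and promotes ribosome synthesis and growth. The small G proteins Ras1 and Ras2 feed into the same cyclase, so cells without Gpa2 still make cAMP.

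Each array gave 1 intensity for each of 9275 probe sets other than controls. Of these, 6504 name a single gene, and the brightest probe set stood for each of 5656 genes, of which 5115 were bright enough to test. Median deposited intensities were 225.1 and 237.6 on the gpa2 deletion arrays, against 563.5 and 373.5 on the wild-type arrays. Hybridisation controls added to the samples were dimmer as well, with a log2 difference of -0.91 between the gpa2 deletion and wild type over 9 probe sets, beside -0.99 for the median intensity. Values were therefore quantile normalised, and every level below is a normalised log2 intensity unless called deposited. The ratio of 3-prime to 5-prime signal of actin, a measure of RNA length, was 1.54 and 1.53 on the gpa2 deletion arrays and 1.26 and 1.29 on the wild-type arrays. For SPT15, the TATA-binding protein, it was 3.50 and 4.55 on the gpa2 deletion arrays and 3.16 and 10.3 on the wild-type arrays, with wild-type array 2 the highest of all. The part of RNA length in the results was not tested. Single bright probe sets dropped to near 0 on some arrays. The chosen TDH3 probe set, for glyceraldehyde-3-phosphate dehydrogenase, had deposited intensities of 14740.1 and 8027.8 in the gpa2 deletion, against 0.2 and 3 in wild type, and its difference did not pass the test (log2 difference 10.66, limma adjusted p = 0.117).

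The deleted gene was examined to check the labels. GPA2 read 3.84 and 4.41 on the gpa2 deletion arrays, against 10.64 and 10.74 on the wild-type arrays. The gpr1 deletion arrays stood at 10.14 and 10.46. Both gpa2 deletion arrays lay near the floor of the scale (log2 3.16) and far below all other arrays. The change was -6.57 ± 0.29 on the log2 scale (SE over 2 arrays in each group; limma adjusted p = 2.15e-05). Its size depends on the floor and was -4.45 when the floor was raised to the 25th percentile. The 3 genes on either side of GPA2 in the gene order of the R64 assembly (SPC25, ISC1 and SBH2, and RPN3, SRB4 and PRO3) had log2 differences of -0.32 to 0.41, and none passed the test.

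Within its own signalling pathway 0 genes other than GPA2 passed the test, where 0.958% of all genes passed. Of the 19 tested genes in the list of the Gpr1, Gpa2, Ras and protein kinase A pathway, 13 differed upward and 6 downward, with a median log2 difference of 0.12. Over all 5115 genes 2486 differed upward (48.6%), and the median was -0.01. The receptor gene GPR1 read 9.70 and 9.91 on the gpa2 deletion arrays, against 9.48 and 9.89 on the wild-type arrays, and the 2 groups overlapped (log2 difference 0.12, limma adjusted p = 0.919). GPB1, a kelch-repeat partner of Gpa2, differed by -0.51 (limma adjusted p = 0.538). PDE2, the high-affinity cAMP phosphodiesterase, differed by 0.39 (limma adjusted p = 0.496), and the kinase catalytic subunit gene TPK2 by 0.40 (limma adjusted p = 0.515). RGS2, which turns Gpa2 off by speeding its GTP hydrolysis, differed by 0.30 (limma adjusted p = 0.763). Among 19 tested kinases and transcription factors that act under protein kinase A, 0 passed the adjusted threshold and 1 had an unadjusted p under 0.05. That gene was MSN2, a stress transcription factor, which read 9.92 and 9.85 on the gpa2 deletion arrays, against 9.40 and 8.92 on the wild-type arrays (log2 difference 0.72, limma adjusted p = 0.322). GPG1, known as a partner of Gpa2 and its kelch proteins and in none of the lists, did rise. It read 10.29 and 10.18 on the gpa2 deletion arrays, against 8.96 and 8.75 on the wild-type arrays, a 2.60-fold difference (log2 change 1.38 ± 0.22, limma adjusted p = 0.0374). Both gpa2 deletion arrays lay above both wild-type arrays, as in 19.7% of all genes tested. Without scaling the GPG1 groups overlapped, at deposited intensities of 733.3 and 767.7 in the gpa2 deletion against 760.2 and 436.7 in wild type. The unscaled difference was 0.38 and did not pass (limma adjusted p = 0.576), where the median of all genes was -1.02.

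Across the genome the gpa2 deletion differed from wild type in few genes at this number of arrays. By limma with adjustment over 6956 probe sets, 49 of 5115 genes passed (0.958%): 32 were higher (0.626%) and 17 lower (0.332%) in the gpa2 deletion. At an unadjusted p under 0.05 the counts were 352 higher (6.88%) and 278 lower (5.43%). The rises had a median log2 change of 1.92 and the falls of -2.37, and 14 rises and 11 falls exceeded 4-fold. In all 49 genes the gpa2 deletion arrays did not overlap the wild-type arrays, which was also true of 1006 genes on the higher side (19.7%) and 990 on the lower side (19.4%) over all genes tested. The arrays themselves differed by a median of 0.268 within the gpa2 deletion and 0.376 within wild type on the log2 scale. Which genes passed depended strongly on single arrays: 5 of the 49 still passed without gpa2 deletion array 1, 9 without gpa2 deletion array 2, 22 and 24 without gpr1 deletion array 1 or 2, and 46 and 36 without wild-type array 1 or 2. The total count of calls without each array was 5, 9, 25, 28, 139 and 55 in that order. HSP12, HSP26, DDR2, GPA2 and PRM7 passed whichever array was left out. Without scaling, on the deposited values, 13 genes were higher and 71 lower, a share of 15.5% higher where the normalised values gave 65.3%. With no filter on dim probe sets 4 of the 49 still passed, and neither HSP26 nor DDR2 was among them.

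**Figure D1:**
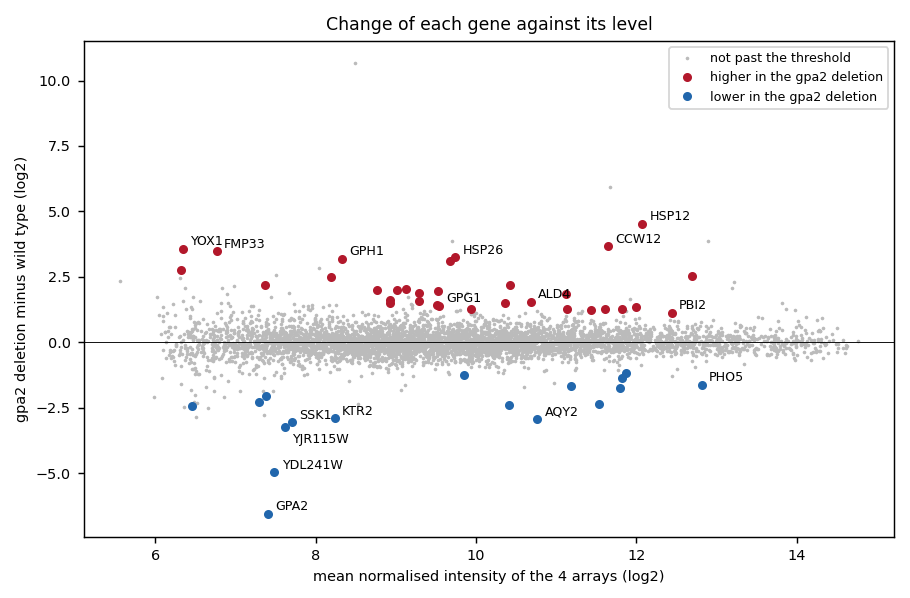
Difference between the gpa2 deletion and wild type (log2, vertical axis) against the mean normalised intensity of the 4 arrays (log2, horizontal axis), with 1 point per gene tested. The 32 genes that rose and the 17 that fell are coloured, and the 24 genes with the largest calls span log2 changes of 2.18 to 4.53 upward and -1.77 to -6.57 downward.

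Of the 12 largest rises in the gpa2 deletion, 6 were genes of the general stress response, which Msn2 and Msn4 drive when protein kinase A is low. HSP12, a small membrane-associated stress protein, read 14.25 and 14.43 on the gpa2 deletion arrays, against 9.63 and 9.99 on the wild-type arrays. The groups were separated by over 4 log2 units between their means, the arrays of a group differed by 0.18 in the gpa2 deletion and 0.37 in wild type, and the rise was 23.1-fold (log2 change 4.53 ± 0.21, limma adjusted p = 2.15e-05). HSP26, a small chaperone that keeps unfolded proteins soluble, read 11.28 and 11.44 on the gpa2 deletion arrays, against 8.20 and 8.04 on the wild-type arrays (log2 change 3.24 ± 0.29, limma adjusted p = 0.00217). DDR2, a gene induced by many stresses, read 13.91 and 14.02 on the gpa2 deletion arrays, against 11.53 and 11.32 on the wild-type arrays (5.82-fold, limma adjusted p = 0.00217). In all 3 genes both gpa2 deletion arrays lay more than 2 log2 units above both wild-type arrays. GPH1, glycogen phosphorylase, read 10.05 and 9.81 on the gpa2 deletion arrays, against 7.28 and 6.18 on the wild-type arrays, with wild-type arrays more than 1 log2 unit apart (log2 change 3.19, limma adjusted p = 0.0298). RTN2, a reticulon that shapes the endoplasmic reticulum, read 8.41 and 8.53 on the gpa2 deletion arrays, against 6.07 and 6.47 on the wild-type arrays (log2 change 2.20, limma adjusted p = 0.0331). MSC1, a stress-induced gene of poorly known function, read 11.44 and 11.60 on the gpa2 deletion arrays, against 9.53 and 9.14 on the wild-type arrays (log2 change 2.18, limma adjusted p = 0.0146). In each of them both gpa2 deletion arrays were high and both wild-type arrays low, as in every rise called. RNA from a whole culture does not tell whether more cells were in a stress-like state or each cell held more of these transcripts.

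Of the 66 tested genes in the general stress list, 14 rose and 0 fell, 61 differed upward, and the median log2 difference was 0.69, beside -0.01 over all genes. Over all genes tested, 0.626% rose, 0.332% fell and 48.6% differed upward. The list was chosen with earlier results of these data known, so its counts are a description and not a test. The mean level of the list was 10.96 and 11.01 on the gpa2 deletion arrays, against 10.05 and 10.04 on the wild-type arrays, so the arrays of a group were almost alike and the groups stood apart. Beside the 6 genes above, the risen members were DCS2, an inhibitor of mRNA decapping scavenger activity (log2 change 2.01), GAD1, glutamate decarboxylase (1.96), PGM2, phosphoglucomutase (1.88), TFS1, an inhibitor of carboxypeptidase Y (1.86), and TSL1, a subunit of trehalose synthase (1.49). They also included OM14 of the mitochondrial outer membrane (1.28), STF1, which stabilises the inhibited ATP synthase (1.27), and PBI2, an inhibitor of vacuolar proteinase B (1.13). The limma adjusted p of these 8 genes lay between 0.0153 and 0.0455. Just outside the threshold was HXK1, the hexokinase made when glucose is scarce (1.64, limma adjusted p = 0.0504). CTT1, the cytosolic catalase and a standard Msn2 and Msn4 target, read 8.24 and 7.30 on the gpa2 deletion arrays, against 7.07 and 6.06 on the wild-type arrays, and did not pass (log2 difference 1.20, limma adjusted p = 0.391). PRB1, vacuolar proteinase B, differed the other way (-0.64, limma adjusted p = 0.324). The count of 14 rises was 3 without either gpa2 deletion array, 8 without either gpr1 deletion array, and 22 and 15 without wild-type array 1 or 2, while the median stayed within 0.67 to 0.70. It was 1 with no filter on dim probe sets, 7 without the trend, 8 with the gpa2 deletion and wild-type arrays alone, and 4 without scaling, where the list median was -0.32, or 0.70 relative to all genes.

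**Figure D2:**
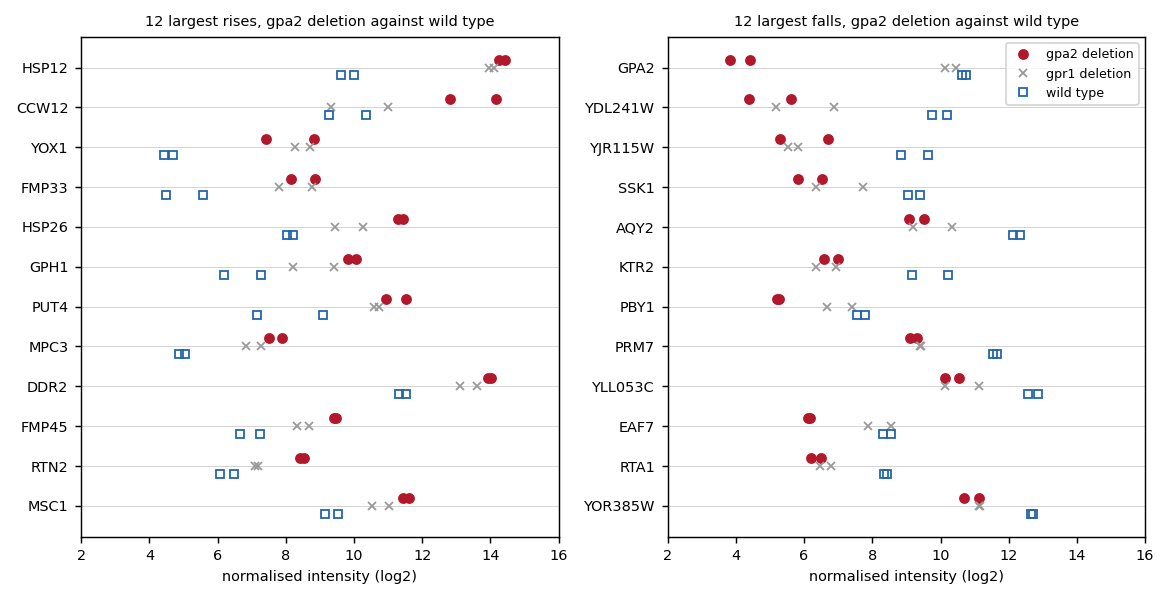
Normalised log2 intensity of the 12 genes with the largest rises (left) and the 12 with the largest falls (right) on each array, with filled circles for the gpa2 deletion, crosses for the gpr1 deletion and open squares for wild type. In every one of the 24 genes both gpa2 deletion arrays lie on one side of both wild-type arrays, and HSP12 stands 23.1-fold above wild type. The same separation holds for 19.7% of all genes on the higher side and 19.4% on the lower side.

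Of 23 tested heat shock chaperones, 0 passed, 15 differed upward, and the median log2 difference was 0.25. Among all genes 0.958% passed and 48.6% differed upward. HSP78, a chaperone of the mitochondrial matrix, read 10.15 and 10.05 in the gpa2 deletion, against 9.08 and 9.10 in wild type (log2 difference 1.01, limma adjusted p = 0.0889). HSP82, the inducible Hsp90, differed by 0.63 (limma adjusted p = 0.331), and the disaggregase gene HSP104 by -0.10 (limma adjusted p = 0.898). HSP30, a plasma membrane stress protein, lay lower in the gpa2 deletion (-0.73, limma adjusted p = 0.311). Without wild-type array 1, 2 of the chaperones passed on the higher side.

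Genes of storage carbohydrate were mostly higher, with few calls. In the trehalose list 2 of 10 tested genes rose, 9 differed upward, and the median log2 difference was 0.40. Among all genes tested 0.626% rose and 48.6% differed upward. PGM2, which supplies glucose-1-phosphate, read 10.41 and 10.04 in the gpa2 deletion, against 8.48 and 8.20 in wild type (limma adjusted p = 0.0177). TSL1 read 10.88 and 11.33 in the gpa2 deletion, against 9.53 and 9.69 in wild type (limma adjusted p = 0.0374). The catalytic subunit genes TPS1, the synthase, and TPS2, the phosphatase, differed by 0.35 and 0.56 and did not pass (limma adjusted p = 0.570 and 0.489). NTH1, the neutral trehalase, differed by 0.33 (limma adjusted p = 0.643). In the glycogen list 1 of 15 tested genes rose, GPH1, and 10 differed upward, with a median of 0.51. GSY2, the main glycogen synthase, read 9.89 and 10.15 in the gpa2 deletion, against 9.09 and 8.56 in wild type, a difference of 1.20 that did not pass (limma adjusted p = 0.0984). GDB1, the debranching enzyme, differed by 0.96 (limma adjusted p = 0.230), and GLG2, a glycogenin that primes synthesis, by 0.81 (limma adjusted p = 0.358).

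Among the other large rises, CCW12, an abundant mannoprotein of the cell wall, read 14.15 and 12.81 on the gpa2 deletion arrays, against 9.27 and 10.36 on the wild-type arrays. The gpr1 deletion arrays, at 9.33 and 11.01, lay with wild type. The rise of CCW12 was 12.7-fold (log2 change 3.66 ± 0.61, limma adjusted p = 0.0445), its arrays spread by more than 1 log2 unit within both groups, and it ranged over 2.99 to 4.34 as single arrays were left out, the ends being without gpa2 deletion array 1 and array 2. YOX1, a homeodomain repressor that closes the early cell cycle window of Mcm1 targets, read 8.83 and 7.41 on the gpa2 deletion arrays, against 4.42 and 4.70 on the wild-type arrays (log2 change 3.56 ± 0.50, limma adjusted p = 0.0268). Both wild-type arrays of YOX1 were dim. A floor raised to the 25th percentile gave a change of 1.89 that did not pass (limma adjusted p = 0.124). Without gpa2 deletion array 1 or 2 the change of YOX1 was 2.85 or 4.27. FMP33, a mitochondrial protein of unknown role, read 8.15 and 8.85 on the gpa2 deletion arrays, against 4.48 and 5.58 on the wild-type arrays (log2 change 3.47, limma adjusted p = 0.0298; 2.27 with the higher floor). PUT4, the proline permease, read 11.53 and 10.94 on the gpa2 deletion arrays, against 9.08 and 7.14 on the wild-type arrays, with wild-type arrays almost 2 log2 units apart (log2 change 3.12, limma adjusted p = 0.0455; 2.15 to 4.09 as single arrays were left out, the ends being without wild-type array 2 and array 1). MPC3, the subunit of the mitochondrial pyruvate carrier used in respiratory growth, read 7.90 and 7.50 on the gpa2 deletion arrays, against 5.03 and 4.87 on the wild-type arrays (log2 change 2.75, limma adjusted p = 0.0347). With the higher floor the change of MPC3 was 1.47 and did not pass (limma adjusted p = 0.108). FMP45, a membrane protein of the eisosome compartment, read 9.46 and 9.41 on the gpa2 deletion arrays, against 7.25 and 6.67 on the wild-type arrays (log2 change 2.47, limma adjusted p = 0.0153). In all 6 genes both gpa2 deletion arrays lay above both wild-type arrays, as in every rise called.

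The smaller rises were spread over several functions. ALD4, the main mitochondrial aldehyde dehydrogenase, read 11.49 and 11.42 in the gpa2 deletion, against 9.97 and 9.84 in wild type (log2 change 1.55, limma adjusted p = 0.0177). CYB2, the lactate dehydrogenase of the mitochondrial intermembrane space, read 10.53 and 10.64 in the gpa2 deletion, against 9.28 and 9.31 in wild type (log2 change 1.29, limma adjusted p = 0.0455). With MPC3 they made up the 3 rises among 19 tested genes of the alternative carbon list, of which 13 differed upward with a median of 0.32. The shares over all genes were 0.626% for rises and 48.6% for upward differences. Of the 27 listed genes on the array, 19 passed the filter on the mean over 6 arrays (log2 6.16). MPC3 lay under this filter in wild type (mean 4.95) and passed it through the deletion arrays. With no filter on dim probe sets the list held 1 rise. PCK1 and ICL1, the key enzymes of gluconeogenesis and of the glyoxylate cycle, differed by 0.15 and 0.16 (limma adjusted p = 0.888 and 0.889). GOR1, glyoxylate reductase, read 9.73 and 9.76 in the gpa2 deletion, against 8.40 and 7.85 in wild type (log2 change 1.62, limma adjusted p = 0.0380). AGX1, alanine:glyoxylate aminotransferase, read 10.22 and 9.94 in the gpa2 deletion, against 8.70 and 8.31 in wild type (log2 change 1.57, limma adjusted p = 0.0445). Both act on glyoxylate, were in none of the lists, and showed high values on both gpa2 deletion arrays. COA3, an assembly factor of cytochrome oxidase, changed by 1.33, and SDH6, an assembly factor of succinate dehydrogenase, by 1.25 (limma adjusted p = 0.0298 and 0.0455). The remaining rises were ECM13 of unknown role (2.03), WSC4 of the wall sensor family (1.99), CMI8 (1.51), the glutathione transferase ECM4 (1.42) and the aldehyde reductase ARI1 (1.22), with limma adjusted p between 0.0153 and 0.0484. Of the 32 risen genes, 14 were in the general stress list and 12 in none of the 39 lists.

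Among the genes that fell beside GPA2, YDL241W, a gene of unknown role, read 4.37 and 5.63 on the gpa2 deletion arrays, against 9.75 and 10.19 on the wild-type arrays (log2 change -4.97 ± 0.63, limma adjusted p = 0.0166). YJR115W, also of unknown role, read 5.30 and 6.70 on the gpa2 deletion arrays, against 8.84 and 9.64 on the wild-type arrays (log2 change -3.24, limma adjusted p = 0.0411). SSK1, the response regulator of the osmosensing branch that starts at Sln1, read 5.83 and 6.52 on the gpa2 deletion arrays, against 9.06 and 9.41 on the wild-type arrays (log2 change -3.06, limma adjusted p = 0.0379). All 3 were dim on the gpa2 deletion arrays, and a floor raised to the 25th percentile gave changes of -3.74, -2.78 and -2.85. Leaving out gpa2 deletion array 2 or 1 moved YDL241W to -5.60 or -4.34 and YJR115W to -3.94 or -2.55. AQY2, a water channel, read 9.08 and 9.51 on the gpa2 deletion arrays, against 12.13 and 12.34 on the wild-type arrays (log2 change -2.94, limma adjusted p = 0.0153). YLL053C, the reading frame next to AQY2 and continuous with it in some other strains, read 10.14 and 10.55 on the gpa2 deletion arrays, against 12.58 and 12.85 on the wild-type arrays (log2 change -2.37, limma adjusted p = 0.0268). The AQY2 and YLL053C probe sets may report the same transcript, and both fell by more than 2 log2 units. KTR2, a mannosyltransferase of the Golgi, read 6.59 and 6.98 on the gpa2 deletion arrays, against 10.21 and 9.17 on the wild-type arrays (log2 change -2.91, limma adjusted p = 0.0291). PRM7, known as regulated by pheromone, read 9.11 and 9.32 on the gpa2 deletion arrays, against 11.55 and 11.64 on the wild-type arrays (log2 change -2.38 ± 0.21, limma adjusted p = 0.00217), and its dimmer probe set fell by 2.93. PRM7 is 3 genes and BSC1 2 genes away from GPR1 in the R64 gene order, and GPR1 itself is not the gene deleted in these cells.

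BSC1, chosen after its values were seen, was not tested because it was dim on the 4 arrays of the deletions, which put its mean under the filter. Its deposited intensities were 3.8 and 3.7 in the gpa2 deletion, against 897.7 and 708.7 in wild type, at the floor on both gpa2 deletion arrays, which makes it at least 70.9-fold lower there. The gpr1 deletion arrays gave 6.2 and 4. AIM33, a mitochondrial reductase-like gene chosen in the same way, had deposited intensities of 144.9 and 67 in the gpa2 deletion, against 10.6 and 3.3 in wild type. Both wild-type arrays were at the floor after scaling, and AIM33 measured from the floor was 17.7-fold higher. Neither has a p-value, and both sizes depend on the floor and would be smaller with a higher one. A probe set with no gene name in the annotation used here read 14.24 and 13.25 on the gpa2 deletion arrays. Both wild-type arrays were at the floor, from which it measured 1532-fold higher (limma adjusted p = 1.89e-06). It read 14.08 and 13.83 on the gpr1 deletion arrays. Its deposited intensities in wild type were 3.8 and 0.9, near 0 as for the TDH3 probe set above. The reason for such low values was not tested, and the size of the difference depends on the floor.

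EAF7, which belongs to the histone acetyltransferase NuA4, read 6.18 and 6.11 on the gpa2 deletion arrays, against 8.56 and 8.32 on the wild-type arrays (log2 change -2.29 ± 0.34, limma adjusted p = 0.0322). Its 2 gpa2 deletion arrays were almost equal and far below wild type. EAF7 was the 1 fall among 12 tested NuA4 genes, whose median was 0.06, where 0.332% of all genes fell. TRA1, the scaffold of the complex, differed by -0.41 (limma adjusted p = 0.571). RTA1, of a family of lipid-translocating membrane proteins, read 6.50 and 6.21 on the gpa2 deletion arrays, against 8.35 and 8.44 on the wild-type arrays (log2 change -2.04, limma adjusted p = 0.0461). PBY1, a protein found in processing bodies, read 5.19 and 5.27 on the gpa2 deletion arrays, against 7.55 and 7.80 on the wild-type arrays (log2 change -2.44, limma adjusted p = 0.0497). With the higher floor the change of PBY1 was -1.44 and did not pass (limma adjusted p = 0.144). Neither RTA1 nor PBY1 passed once any 1 of the 6 arrays was left out. YOR385W, of unknown role, read 10.70 and 11.13 on the gpa2 deletion arrays, against 12.64 and 12.72 on the wild-type arrays (log2 change -1.77, limma adjusted p = 0.0153). No YOR385W array was near the floor, and the call was lost with no filter on dim probe sets and without gpa2 deletion array 1; without that array the change was -1.55 (limma adjusted p = 0.145). CMK2, a calmodulin-dependent protein kinase (-1.68), MNC1 (-1.38), GYP7, an activator of the GTPase of a vacuolar Rab protein (-1.26), and DIA1, linked to invasive growth (-1.19), completed the falls with limma adjusted p between 0.0322 and 0.0497. Of the 17 fallen genes, 11 were in none of the lists.

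PHO5, the secreted acid phosphatase, read 12.01 and 11.98 on the gpa2 deletion arrays, against 13.51 and 13.75 on the wild-type arrays (log2 change -1.63 ± 0.19, limma adjusted p = 0.0146). It was the 1 fall among 23 tested genes of the phosphate regulon, of which 16 differed downward with a median of -0.22. Among all genes 0.332% fell and 51.4% differed downward. PHO5 is next to PBY1 in the R64 gene order, and both fell. PHO89, the sodium phosphate symporter, read 8.01 and 8.28 in the gpa2 deletion, against 9.36 and 10.62 in wild type, a difference of -1.84 that did not pass (limma adjusted p = 0.0889). PHO84, the high-affinity phosphate transporter, differed by -0.13 (limma adjusted p = 0.889), and the vacuolar alkaline phosphatase gene PHO8 by -0.62 (limma adjusted p = 0.293). Probe sets that were not the brightest of their gene gave 2 further falls, in genes named after their values were seen. ZRT1, the high-affinity zinc transporter, fell by 1.63 on such a probe set (limma adjusted p = 0.0455), while its brightest read -1.04 (limma adjusted p = 0.0519). UTP20, a component of the processome of the small ribosomal subunit, fell by 1.85 on 1 probe set (limma adjusted p = 0.0374), while its brightest read -0.37 (limma adjusted p = 0.610).

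**Figure D3:**
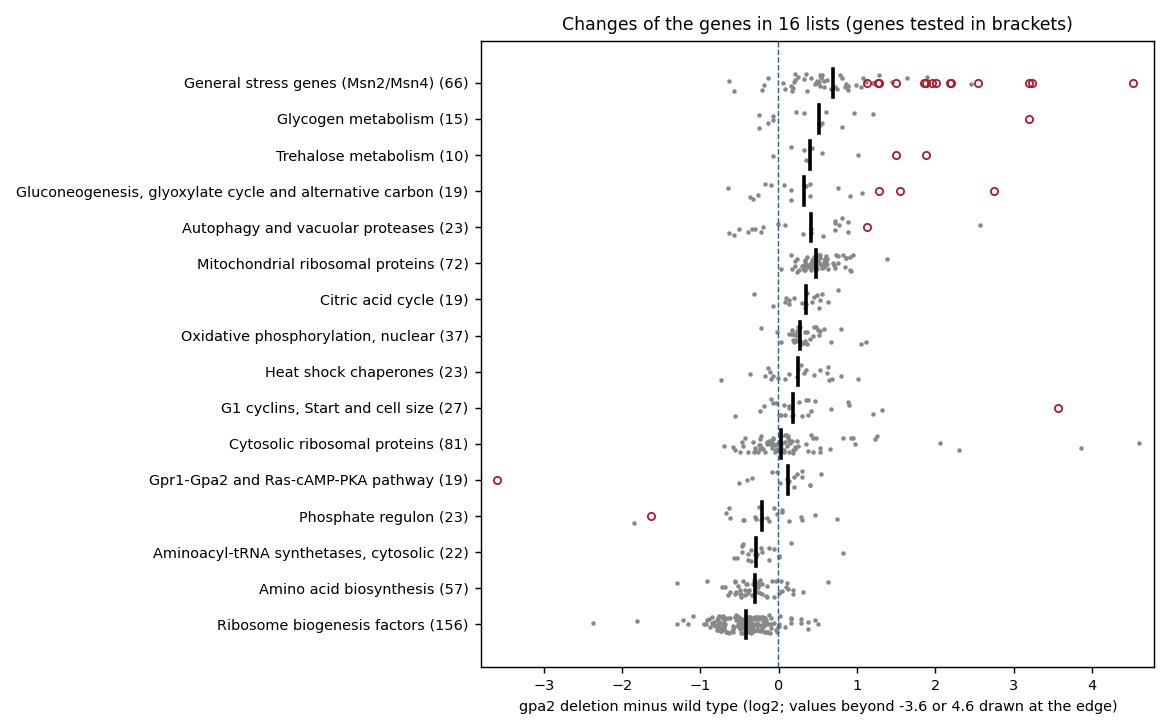
Log2 difference between the gpa2 deletion and wild type for the tested genes of 16 lists, with dots for genes, open circles for genes past the threshold, black bars for list medians and a dashed line at the median of all genes (-0.01). The general stress median is 0.69 and that of ribosome biogenesis factors -0.42, with 14 and 0 genes past the threshold.

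Lists of mitochondrial function lay above wild type with no call. All 72 tested genes for mitochondrial ribosomal proteins differed upward, with a median log2 difference of 0.47. Among all genes 48.6% differed upward and 0.626% rose past the threshold. Of these 72, 21 had an unadjusted p under 0.05, beside 6.88% of all genes on the higher side. The mean level of the 72 genes was 10.52 and 10.47 on the gpa2 deletion arrays, against 10.10 and 9.86 on the wild-type arrays. MRPL8, of the large mitochondrial subunit, read 11.62 and 11.73 in the gpa2 deletion, against 10.87 and 10.66 in wild type (log2 difference 0.91, limma adjusted p = 0.114), and MRP10 of the small subunit differed by 0.42 (limma adjusted p = 0.477). Of 37 tested nuclear genes of oxidative phosphorylation, 35 differed upward with a median of 0.27. COX5B, the low-oxygen form of a cytochrome oxidase subunit, differed by 1.12, and QCR2 of complex III by 0.79 (limma adjusted p = 0.255 and 0.263). Of 19 citric acid cycle genes, 17 differed upward with a median of 0.35. SDH2, the iron-sulphur subunit of succinate dehydrogenase, differed by 0.76, and CIT1, citrate synthase, by 0.34 (limma adjusted p = 0.230 and 0.647). Glycolysis and fermentation genes had a median of -0.00 over 25 tested genes, with 11 upward and 0 calls. That median depended on the scaling and was 0.31 when arrays were centred on their medians instead. Of the mitochondrially encoded genes 2 were tested, COX1 and OLI1, and their mean level was 10.86 and 10.22 on the gpa2 deletion arrays, against 10.81 and 3.59 on the wild-type arrays, with wild-type array 2 near the floor.

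Lists of growth and protein synthesis lay on the other side. Of 156 tested ribosome biogenesis factors, 143 differed downward and 13 upward, with a median log2 difference of -0.42. Among all genes 51.4% differed downward, 0.332% fell past the threshold and the median was -0.01. An unadjusted p under 0.05 was reached by 43 on the lower side and 0 on the higher side, beside 5.43% and 6.88% of all genes. The adjusted threshold was passed by 0 of them. The mean level of these factors was 9.86 and 9.84 on the gpa2 deletion arrays, against 10.34 and 10.25 on the wild-type arrays. NOP6, a small subunit assembly factor, read 9.70 and 9.91 in the gpa2 deletion, against 10.59 and 10.88 in wild type (log2 difference -0.93, limma adjusted p = 0.175). BMS1, a GTPase of the processome, differed by -0.88 (limma adjusted p = 0.201), and SPB4, a helicase of the large subunit, by -2.37 (limma adjusted p = 0.107). Of 81 tested genes for the ribosomal proteins themselves, 43 differed upward, and the median was 0.02, against 0.33 when arrays were centred on their medians instead. RPA190, the largest subunit of RNA polymerase I, differed by -1.54 (limma adjusted p = 0.0666), and 26 of 36 tested genes of RNA polymerases I and III differed downward with a median of -0.19. Of 22 cytosolic aminoacyl-tRNA synthetases, 19 differed downward with a median of -0.29, and CDC60, the leucine enzyme, differed by -0.58 (limma adjusted p = 0.339). Of 57 amino acid biosynthesis genes, 46 differed downward with a median of -0.30. HIS4, a histidine synthesis enzyme, read 11.50 and 12.10 in the gpa2 deletion, against 12.71 and 13.49 in wild type (log2 difference -1.30, limma adjusted p = 0.131). Purine synthesis genes differed downward in 16 of 19, with a median of -0.20. None of these lists held a call in this fit, though several gained 1 or more under the alternatives, and the medians of the mitochondrial ribosomal and ribosome biogenesis lists stayed within 0.42 to 0.55 and -0.45 to -0.40 as single arrays were left out.

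**Figure D4:**
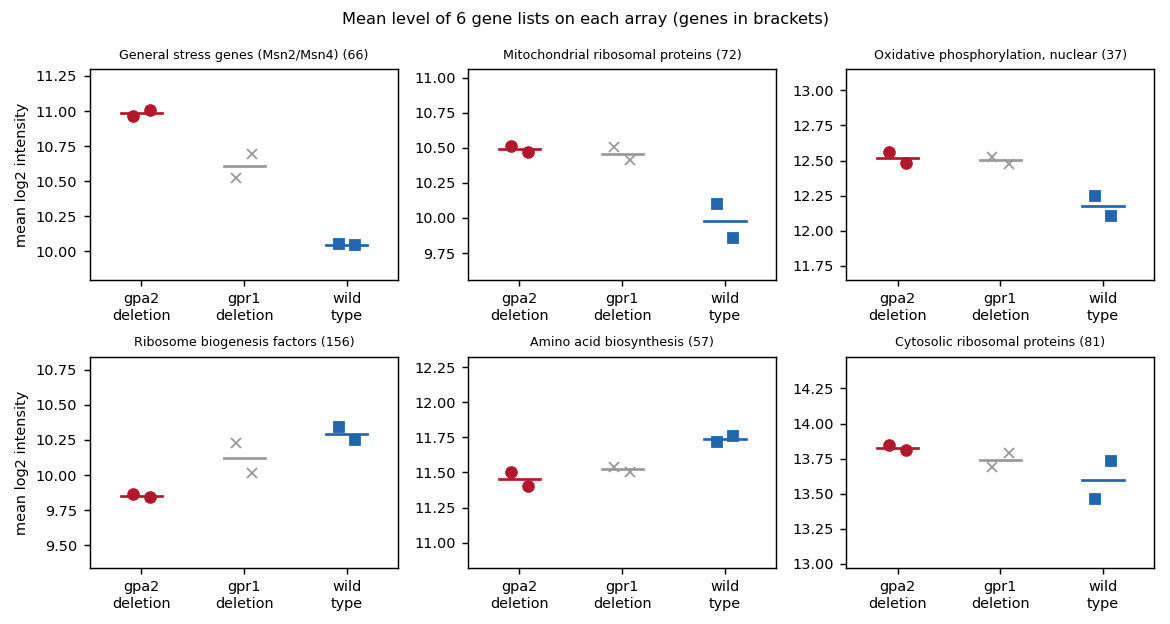
Mean normalised log2 intensity of the tested genes of 6 lists on each array, with gpa2 deletion arrays left, gpr1 deletion arrays in the middle and wild-type arrays right, and bars at the group means. The stress list stands at 10.96 and 11.01 in the gpa2 deletion and 10.05 and 10.04 in wild type, and the ribosome biogenesis list at 9.86 and 9.84 in the gpa2 deletion and 10.34 and 10.25 in wild type.

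The list of G1 cyclins and cell size genes held 1 call among 27 tested genes, YOX1, with 20 upward and a median of 0.18. Of all genes tested, 0.958% passed, 48.6% differed upward and the median was -0.01. The list held 0 calls with the floor at the 25th percentile or with no filter on dim probe sets. CLN3, the cyclin that starts the cycle, differed by 0.17, CLN1 by 0.26 and CLN2 by 0.29 (limma adjusted p = 0.802, 0.756 and 0.660). The Pho85 cyclin genes PCL1 and PCL2 differed by 1.21 and 1.33 (limma adjusted p = 0.235 and 0.129). SIC1, the inhibitor of S-phase cyclin kinase, read 10.31 and 10.32 in the gpa2 deletion, against 9.58 and 9.72 in wild type (log2 difference 0.67, limma adjusted p = 0.280). In the cell wall list 1 of 60 tested genes rose, CCW12, and 1 fell, KTR2, with a median of 0.01. The wall integrity kinase gene SLT2 differed by -0.86, and the aspartyl protease gene YPS3 by -1.13 (limma adjusted p = 0.307 and 0.0953). SSK1 was the 1 call among 25 tested genes of the osmosensing pathway, with the kinase gene HOG1 at -0.03 and the sensor gene SLN1 at -0.05.

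Nutrient genes differed in both directions. PUT4 was the 1 rise among 37 tested nitrogen catabolite and permease genes, whose median was 0.07, where 0.626% of all genes rose. GAP1, the general amino acid permease, read 11.89 and 12.08 in the gpa2 deletion, against 12.90 and 13.14 in wild type (log2 difference -1.04, limma adjusted p = 0.0676), and MEP2, the ammonium permease and sensor, read 9.93 and 9.70 in the gpa2 deletion, against 11.22 and 10.53 in wild type (log2 difference -1.06, limma adjusted p = 0.177). Neither passed the test, and both lay lower in the gpa2 deletion where PUT4 lay higher. Of 12 tested hexose transport and sensing genes 0 passed, with HXT3 at -0.70, HXT2 at -0.94 and a list median of 0.14. The autophagy and vacuolar list held PBI2 as its 1 rise among 23, with a median of 0.41; ATG33, of mitophagy, differed by 2.57 (limma adjusted p = 0.0825). Of 20 tested filamentous growth genes 0 passed and 13 differed downward, where 0.958% of all genes passed and 51.4% differed downward. FLO11, the main adhesin of filaments, differed by 0.33, and NRG2, a repressor of it, by -1.14 (limma adjusted p = 0.763 and 0.0825). Lists of iron and copper, sulphur assimilation, peroxisomes, meiosis, proteasome and ergosterol held 0 calls in either direction, with medians between -0.23 for meiosis and 0.03 for iron and copper.

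Genes that mark the strain were examined as well. The a-specific genes, which mark cells of mating type a, had levels on all arrays: the receptor gene STE2 read 11.78 and 11.10 in the gpa2 deletion, against 11.56 and 11.26 in wild type, and the pheromone gene MFA2 read 13.84 and 13.70 in the gpa2 deletion, against 13.23 and 13.11 in wild type. The alpha-specific receptor gene STE3 read 6.53 and 6.93 in the gpa2 deletion, against 6.08 and 6.37 in wild type, with no call for any of these genes. All 7 a-specific genes differed upward with a median of 0.30, and 0 passed, where 48.6% of all genes differed upward and 0.958% passed. PRM7 was the 1 call among 23 tested pheromone response genes. Of 8 genes used as nutritional or replacement markers 7 differed downward, with a median of -0.34 and 0 calls, beside 51.4% downward over all genes. HIS3, a histidine synthesis gene, differed by -1.13 (limma adjusted p = 0.228), and URA3 differed by -0.55 (limma adjusted p = 0.365). Strain markers that differ between the deletion and its wild type cannot be told apart from the deletion itself.

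Whether a change was particular to loss of the G alpha subunit was tested by setting the gpa2 deletion against the gpr1 deletion, with the same fit. By limma, 2 of 5115 genes passed (0.0391%), which were the deleted genes GPA2 and GPR1, and 107 genes had an unadjusted p under 0.05 (2.09%). Of the 49 genes called against wild type, 1 passed against the gpr1 deletion, GPA2. HSP12 read 14.25 and 14.43 in the gpa2 deletion, against 13.96 and 14.11 in the gpr1 deletion, a difference of 0.31 with a 95% interval of -0.17 to 0.78. ARI1 had the smallest limma adjusted p of the remaining called genes in this comparison, at 0.236. It read 12.02 and 12.06 in the gpa2 deletion, against 10.70 and 10.62 in the gpr1 deletion, which lay with wild type at 10.95 and 10.70 (difference 1.38, interval 0.92 to 1.85). EAF7 read 6.18 and 6.11 in the gpa2 deletion, against 8.56 and 7.86 in the gpr1 deletion (difference -2.06, interval -2.85 to -1.27, limma adjusted p = 0.460). CCW12 differed by 3.31 between the deletions (interval 1.91 to 4.71, limma adjusted p = 0.624), and HSP26 by 1.51 (interval 0.85 to 2.17, limma adjusted p = 0.650). The intervals of ARI1, EAF7, CCW12 and HSP26 exclude 0 before adjustment over all probe sets, and none of these differences passed after it. These genes were picked for a small p among genes already called with the same gpa2 deletion arrays. Such a choice moves unadjusted intervals away from 0. PHO5 and PRM7 differed between the deletions by -0.08 and -0.20, with intervals of -0.52 to 0.35 and -0.68 to 0.28. The general stress list had a median difference of 0.29 between the gpa2 and gpr1 deletions, with 58 of 66 genes upward, and the ribosome biogenesis list of -0.24, with 11 of 156 upward, beside -0.02 over all genes. No member of either list passed in this comparison.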

How the data were processed

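Total RNA of 6 samples was measured on single-colour oligonucleotide arrays. The deposited values are intensities on a linear scale, 1 per probe set, made by the authors; per the labels each sample was labelled in 1 colour, and no source used here says how probe signals were summarised or scaled. Samples were grouped by their titles, and 0 value columns were left unused.

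The 9275 probe sets left without 60 controls were quantile normalised over the 6 arrays. Values below the pooled 10th percentile (intensity 8.97, log2 3.16) were raised to it, log2 was taken, and probe sets with a mean under the 25th percentile were left out, which left 6956. The mean was taken over all 6 arrays, so a gene dim in 1 group could pass this filter through the others. Changes were fitted with limma 3.58.1 in R 4.3.3, 1 coefficient per group over all 6 arrays (3 residual and 5.50 prior degrees of freedom, moderation with a trend), with Benjamini-Hochberg adjustment at 0.05. The brightest probe set stood for each gene with a single symbol. Only 2 arrays per group limit the precision, with a median standard error of 0.269 on the log2 scale. The procedure was tested on simulated data.

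Named genes are GPA2, GPR1, the 3 genes on either side of GPA2, every gene past the threshold, and of each list the first 4 members and the 4 with the smallest p. A gene outside this rule is marked as picked with its values known. The members, lists and tests were chosen with earlier results of these data known. Lists are described by counts and medians without a test. Symbols came from the platform annotation, with gene order from R64. Alternatives were a replicate block, other scaling, floors, filters and moderation, only the 2 groups compared, and leaving out each array in turn. Promoter sequences were not analysed here.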

Additional observations from a re-analysis of the deposited data

Results flagged for a closer look

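In the comparison of the gpa2 deletion with the gpr1 deletion, 2 genes differed by the test of the difference itself, and both are the deleted genes. GPA2 was lower in the gpa2 deletion than in the gpr1 deletion by a log2 difference of -6.18 (limma adjusted p = 4.74e-05, both arrays of each group on their own side). GPR1 was higher in the gpa2 deletion by 6.64 (limma adjusted p = 4.74e-05), with both gpr1 deletion arrays at the floor, so this value depends on the floor.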

How the results depend on the processing

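The count of 49 genes, 32 higher and 17 lower in the gpa2 deletion, moved with most choices, and the cause was not tested unless named. It was 84 (13 higher and 71 lower) without any scaling, which shifted the median of all genes by -1.01 on the log2 scale. It was 7 (2 and 5) with no filter on dim probe sets, which tests 9275 probe sets, and 23 (13 and 10) without the trend. It was 26 (14 higher) with the gpa2 deletion and wild-type arrays alone, which leaves fewer samples for the estimate of spread. With the filter at the 50th percentile 10 genes were lower, and against the gpr1 deletion 0 passed by limma because GPA2 and GPR1 were themselves filtered out. Leaving out single arrays gave 5 to 139 genes, with 3 to 108 higher and 2 to 31 lower; where a group keeps 1 array, it is assumed to vary like the others. Against the gpr1 deletion 6 genes passed on the values as deposited.

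The numbers of the arrays are shared between groups, but the labels do not say that they mark a shared batch, and 2 pairs do not settle it. With the replicate block 102 genes passed (64 higher and 38 lower), and all 49 remained. The lists of ribosome biogenesis, RNA polymerases I and III and amino acid biosynthesis then held 1 fall each, and ribosomal proteins and glycolysis 1 rise each. Deviations of same-numbered arrays correlated across probe sets at 0.404 between the gpa2 deletion and wild type, 0.209 between the deletions and 0.203 between the gpr1 deletion and wild type.

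Signs of the 49 called genes changed under 0 of the alternatives. Of the values of named genes under the alternatives, 288 lost and 64 gained the threshold. Among genes that passed in neither setting, 196 values changed sign, 109 of them without scaling, where the median of all genes itself shifted. With 2 arrays per group and values near the floor, the sizes of changes in dim genes are uncertain.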
